A study of Homo sapiens with 12 samples.

Results

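The knockdown of ARID1A was examined as a single contrast over all 12 of 12 libraries of the series, 6 from Ishikawa cells with a hairpin against ARID1A (shARID1A, labelled shARD) and 6 from the same line with a control hairpin (shNC). Ishikawa is an established line from a human endometrial adenocarcinoma. Each arm held 2 libraries from cells given DMSO as vehicle, 2 from cells given 10 nM estradiol (E2) and 2 from cells given 10 nM E2 with 100 nM fulvestrant, an estrogen receptor antagonist and degrader, each for 8 h. All cells of both arms were in phenol-red-free medium with charcoal-stripped serum, which is low in steroid hormones. The members were chosen by arm alone, with treatment kept as a block, so that the contrast asks which genes differed between the arms whatever the cells had been given. The labels do not state how many hairpins or lines stand behind each arm, nor whether both libraries of each group are independent cultures. The p-values therefore measure the spread between these libraries, which may be technical, and ARID1A loss cannot be told apart from any other lasting difference between the shARD and shNC cells.

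ARID1A is the large DNA-binding subunit that defines the canonical BAF form of the SWI/SNF complex, an ATP-driven machine that slides and evicts nucleosomes at enhancers and promoters. Its close paralogue ARID1B occupies the same place in other copies of the complex. ARID1A is among the genes most often inactivated in endometrial carcinoma, and its loss is known to alter the activity of enhancers.

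The libraries held 28753202 to 38589497 counts over 20936 to 22053 genes with at least 1 count. A gene with 3 counts, used as the floor of detection, stood at 0.0777 to 0.104 CPM, the depth-scaled count used throughout. Mitochondrially encoded genes took 4.77% to 5.13% of the counts in shNC and 5.51% to 5.73% in shARD. Of 10 epithelial and endometrial gland markers, 6 exceeded 1 CPM, and their summed level was 951 to 1048 CPM in shNC and 607 to 659.7 CPM in shARD, with KRT8, KRT18 and MUC1 carrying nearly all of it. KRT19, CDH1 and CLDN4 stayed below 1 CPM in every library, ESR1 did not exceed 1.09 CPM, and PGR had 0 counts in all 12, so that these defining markers of the endometrial gland were at or near 0. Most markers of other cells were low: CD3E, KDR and THY1 had 0 counts in all libraries, PTPRC and LUM reached 1 count, and the stromal sum of 32.3 to 44.0 CPM in shNC and 50.1 to 53.4 CPM in shARD was mostly COL1A1. COL1A1 was called higher, with a log2 fold change of 0.60, while the stromal markers PDGFRB and DCN were called lower, at -0.54 and -2.76, and the other 6 stromal markers were too low to be tested. The neural marker TUBB3 was an exception, at 189.0 to 217.4 CPM in shNC and 185.8 to 211.5 CPM in shARD, and was not called. In bulk RNA, fewer cells with a transcript and less transcript per cell cannot be told apart.

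ARID1A itself, on chromosome 1 from 27055871 to 27107678 (plus strand, hg19), was lower in every shARD library. The lowest, median and highest values were 110.1, 118 and 123 CPM in shNC and 53.9, 57 and 61.8 CPM in shARD, and 3 values for an arm are given in this order throughout. The arms did not overlap, and the pooled log2 fold change was -1.03 (SE 0.041, adjusted p = 3.64e-19 by edgeR's quasi-likelihood test with Benjamini-Hochberg adjustment), which leaves 48.8% of the control level. Fitted within each treatment, the log2 fold change was -0.96 in DMSO, -1.11 in E2 and -1.03 in E2 with fulvestrant.

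The arms differed in a large part of the transcriptome, by small amounts for most genes. Of 16998 genes tested, 3469 were higher (20.4%) and 3883 lower (22.8%) in shARD at an adjusted p under 0.05, which is 43.3% in either direction. Of these 7352 genes, 3731 differed by less than 1.25-fold and 5692 by less than 1.5-fold. Beyond 1.25-fold, 1348 were higher and 2273 lower. Beyond 2-fold, 203 were higher and 564 lower, and beyond 4-fold 32 and 117. A test against a 1.5-fold change, which asks for more than that size beyond the error, called 649 genes (3.82%), of which 203 were higher (1.19%) and 446 lower (2.62%). The larger differences were thus more often falls than rises. At the edge of the call, TUBD1 (log2 fold change -0.21) was just inside and MSX1 (-0.29) just outside.

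**Figure D1:**
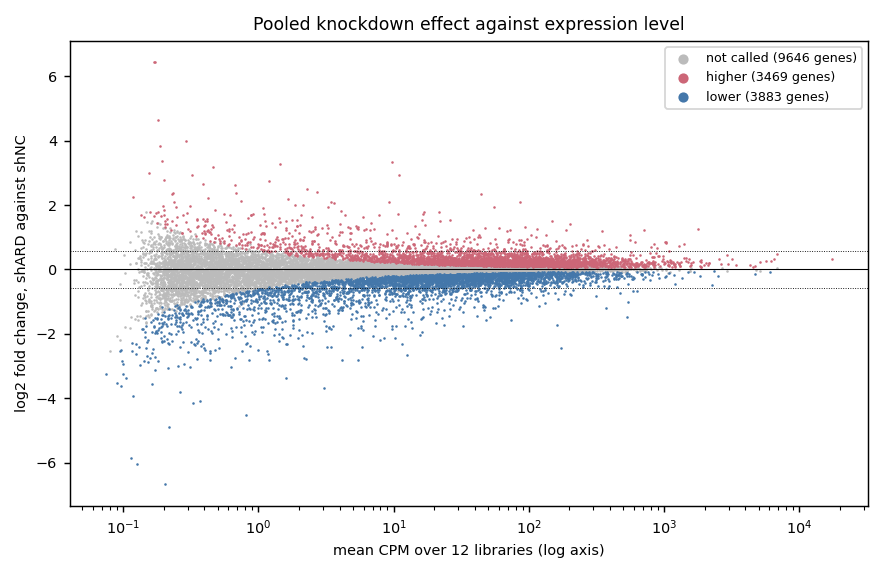
Each point is 1 of the 16998 genes tested, with its mean CPM over the 12 libraries (log axis) against the pooled log2 fold change of shARD against shNC. Red and blue points are the 3469 higher and 3883 lower genes, grey points were not called, and dotted lines mark 1.5-fold. The large falls and the large rises both sit mostly among genes under 5 CPM.

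The direction of the calls followed expression level. Among genes with a mean under 1 CPM, 3.38% were higher and 10.6% lower. The shares were 16.3% and 30.2% from 5 to 20 CPM, 29.5% and 30.2% from 20 to 100 CPM, and 50.4% and 21.2% over 100 CPM. The median absolute log2 change of called genes was 1.39 in the lowest class, where the median SE was 0.39, and 0.21 in the highest, where it was 0.035, so that only large changes could pass at low level. Of the 10326 genes averaging 5 CPM or more, 58% were called, 29.7% higher and 28.3% lower. These shares are a closer background for the well expressed gene lists below.

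The genes with the largest rises included receptors, secreted proteins and signalling enzymes. They were ranked by fold change among called genes of at least 5 CPM in the higher arm and with no overlap between arms, so that their separation is part of how they were picked. SCUBE1, a secreted glycoprotein with CUB and EGF-like domains on chromosome 22 (43627762 to 43739329, minus strand), had 1.19, 1.69 and 2.37 CPM in shNC and 14.5, 18.1 and 19.99 CPM in shARD. Every shARD library was above every shNC library, by 10.1-fold in the fit (log2 fold change 3.34, SE 0.13, adjusted p = 3.71e-19). LCN15, a lipocalin, was at 1.48, 2.75 and 3.11 CPM in shNC and 17.6, 19.6 and 21.8 CPM in shARD (log2 fold change 2.94, SE 0.10, adjusted p = 1.66e-20). NR4A2, an orphan nuclear receptor that is also an immediate early gene, gave 12.7, 14.3 and 16.9 CPM in shNC and 70.2, 73.8 and 78.7 CPM in shARD. The replicates of NR4A2 were tight, and its change of 5.08-fold was estimated to an SE of 0.057 on the log2 scale. CASP9, the initiator caspase of the mitochondrial route to apoptosis, stood at 29.7, 33.1 and 36 CPM in shNC and 132, 141 and 146 CPM in shARD, a 4.25-fold difference (log2 fold change 2.09, SE 0.045, adjusted p = 1.43e-25). Among the 4, NR4A2 and CASP9 were well expressed in both arms, whereas SCUBE1 and LCN15 were close to 2 CPM in shNC.

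The other 11 genes of the 15 rose between 3.26-fold and 4.23-fold. Receptors and their partners included TBXA2R, the thromboxane A2 receptor, at 20.2, 23.1 and 27.3 CPM in shNC and 83.8, 86.7 and 96.6 CPM in shARD, and P2RY6, a receptor for extracellular UDP, at 7.76, 9.76 and 11.4 CPM in shNC and 30.4, 33.3 and 36.1 CPM in shARD. Both were separated by more than the range of either arm. GNG7, a G protein gamma subunit, rose from a median of 1.27 to 5.52 CPM, GRID1, of the delta glutamate receptor family, from 3.8 to 15.2 CPM, and C10orf54 (VSIR), an immune checkpoint ligand, from 4.89 to 16.5 CPM. Secreted or matrix-related products were KIAA1199 (CEMIP), needed for hyaluronan breakdown, which rose by 2.07 on the log2 scale, VIT by 1.93, the metalloprotease MMP28 by 1.81 and the secreted kinase PKDCC by 1.77. The remaining 2 were enzymes of intracellular signalling, the atypical kinase MAPK4 (7.75 to 24.3 CPM) and the phospholipase PLCG2 (3.73 to 12 CPM).

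**Figure D2:**
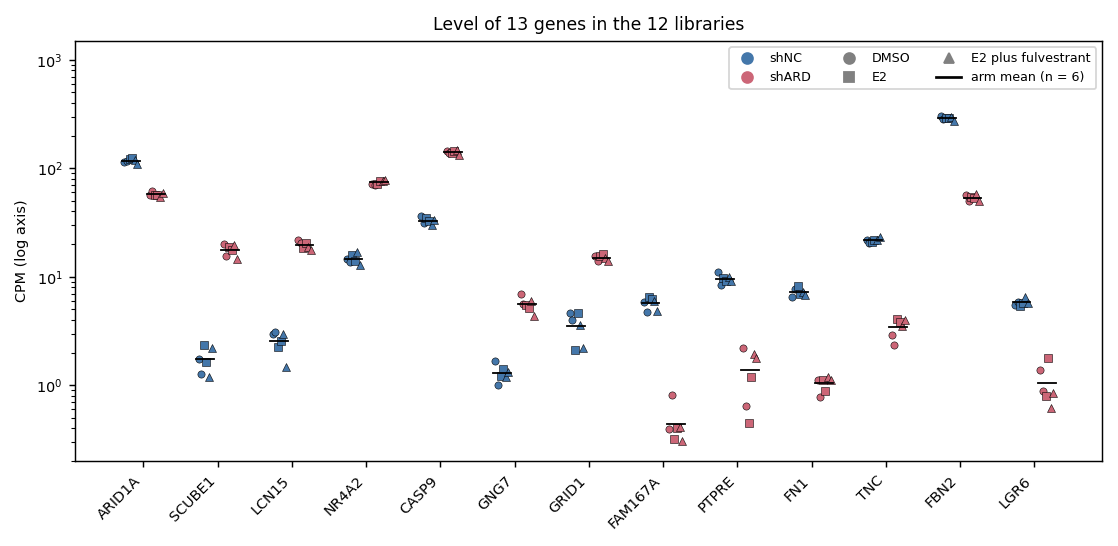
CPM on a log axis in each of the 12 libraries for ARID1A, the 6 genes with the largest rises and the 6 with the largest falls; colour gives the arm, shape the treatment and black bars the mean of 6 libraries. In all 13 genes the 2 arms are apart, and the widest spread within an arm is that of PTPRE in shARD, from 0.448 to 2.18 CPM.

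Several matrix genes were among the 15 largest falls. FBN2, the gene of the microfibril glycoprotein fibrillin-2 (chromosome 5, 127663762 to 127873916, minus strand), was the most strongly expressed of the 15. Its values were 276, 292 and 302 CPM in shNC and 50.3, 53.5 and 57.5 CPM in shARD, a 5.42-fold fall with the smallest adjusted p of all genes named here (log2 fold change -2.44, SE 0.039, adjusted p = 4.96e-29). TNC, the matrix glycoprotein tenascin-C, was at 20.3, 21.7 and 23.3 CPM in shNC and 2.36, 3.68 and 4.07 CPM in shARD (log2 fold change -2.65, SE 0.093, adjusted p = 1.66e-20). FN1, fibronectin, was already low in these cells, with 6.54, 7.13 and 8.31 CPM in shNC and 0.777, 1.12 and 1.2 CPM in shARD (log2 fold change -2.81, SE 0.15, adjusted p = 3.65e-16). FAM167A showed the largest fall of the 15, 12.9-fold, with 4.76, 5.88 and 6.55 CPM in shNC and 0.304, 0.402 and 0.811 CPM in shARD. All but 1 of its shARD libraries lay between 0.304 and 0.412 CPM, not far above the floor, so that the size of this fold is uncertain.

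The other fallers included cell-surface enzymes and receptors. PTPRE, a receptor-type tyrosine phosphatase, had 8.48, 9.45 and 11 CPM in shNC and 0.448, 1.49 and 2.18 CPM in shARD, with a wide spread in shARD. SULF2, an endosulfatase that edits heparan sulfate outside the cell, went from a median of 12.9 to 2.74 CPM, and CHST11, which sulfates chondroitin, from 5.19 to 0.972 CPM. ADAM12, a membrane metalloprotease, fell by 2.02 on the log2 scale (SE 0.14) and LGR6, an R-spondin receptor, by 2.42 (SE 0.17). SLC7A8, an exchanger of neutral amino acids, fell by 2.08, and CDK18, a cyclin-dependent kinase of the PCTAIRE group, by 1.93. DRGX, a homeobox factor of sensory neurons, was at 18.2, 18.7 and 21.3 CPM in shNC and 3.09, 3.81 and 4.54 CPM in shARD. LBH, a transcriptional cofactor, was at 12.6, 13.8 and 15.9 CPM in shNC and 2.5, 3.06 and 4.48 CPM in shARD. C1orf106 (INAVA), an adaptor at epithelial junctions, and TMEM255B fell by 2.05 and 2.42.

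Ranked by the difference in CPM rather than by fold, other genes changed most. CPM is not scaled by gene length, so this ranking gives long genes more weight. MT-CO1, a mitochondrially encoded subunit of cytochrome c oxidase, had the largest rise, from a median of 15589 to 19397 CPM, and ASS1, an enzyme of arginine synthesis, went from 5647 to 8095 CPM. ALPI, annotated as intestinal alkaline phosphatase, was at 977, 1059.9 and 1113 CPM in shNC and 2409.6, 2553 and 2642 CPM in shARD (log2 fold change 1.27, SE 0.03, adjusted p = 9.81e-25). Its reads can be shared with the near-identical placental genes, and ALPP also rose, by 0.74, so which of these genes the reads came from is uncertain. ACTB and MT-ND4 rose by 0.31 and 0.27. The largest losses of CPM were in FASN, the fatty acid synthase (2639 to 1918 CPM), and COL7A1, the anchoring fibril collagen (chromosome 3, 48601506 to 48632593, minus strand), which fell 2.76-fold with 720.1, 795 and 821 CPM in shNC and 272, 274 and 315 CPM in shARD. FLNA, PABPC1 and ACLY fell by 0.15, 0.21 and 0.44. FASN and ACLY both act in fatty acid synthesis from citrate. The arms overlapped for FLNA, the smallest of these changes, and not for the other 9 genes. Of all called genes, 50.6% had no overlap between arms.

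The promoters of the named genes were looked at for the sequence elements a reader may want to compare, using 250 bases before to 50 bases after the start from RefSeq (GRCh38.p14), which matched 8808 tested genes and 26 of the 41 genes comprising ARID1A and those named by fold or by difference in CPM. A TATA element, searched as TATAAA on both strands, was in 5.36% of all matched promoters. It was in 6.25% of the 128 matched promoters of genes past 1.5-fold higher. For genes past 1.5-fold lower, it was in 11.9% of the 278 matched promoters. Over all 27305 promoters of the reference, which include genes not tested, the share was 11.95%. The median number of CpG sites was 26 in all matched promoters, 28.5 in those past 1.5-fold higher and 22 in those past 1.5-fold lower. Of the named genes, 3 carry it shortly before the start, and the last 60 bases before their start are shown with the element in capitals, for the riser LCN15 (chr9:136764519-136764578, minus strand) and the fallers LBH (chr2:30231474-30231533, plus strand) and DRGX (chr10:49396090-49396149, minus strand).
LCN15: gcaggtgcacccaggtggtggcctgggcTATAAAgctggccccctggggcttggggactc
LBH: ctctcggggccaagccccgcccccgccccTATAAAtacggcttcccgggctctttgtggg
DRGX: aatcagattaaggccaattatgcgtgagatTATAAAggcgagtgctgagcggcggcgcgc
The element thus stands before genes that moved in opposite directions. The AP-1 element TGACTCA was in 3.11% of all matched promoters, 3.91% of those past 1.5-fold higher and 6.12% of those past 1.5-fold lower. These last 2 shares rest on 5 and 17 promoters, and the share over all 27305 promoters was 4.92%. The cAMP response element TGACGTCA was in 3.39%, 1.56% (2 promoters) and 2.16% (6 promoters), against 1.98% over all 27305. The shares for GGGCGG, the GC box, were 70.1%, 75.8% and 63.3%, against 44.6% over all 27305, where neighbouring boxes may overlap. The 250 bases before the start hold a cAMP response element, in capitals, in both the faller FN1 (chr2:215436069-215436318, minus strand) and the riser GNG7 (chr19:2702695-2702944, minus strand).
FN1: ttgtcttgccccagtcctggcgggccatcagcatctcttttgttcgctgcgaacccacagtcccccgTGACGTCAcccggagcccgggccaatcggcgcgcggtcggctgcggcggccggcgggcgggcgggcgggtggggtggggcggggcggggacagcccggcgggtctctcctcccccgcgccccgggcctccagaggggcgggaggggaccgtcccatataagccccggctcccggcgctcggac
GNG7: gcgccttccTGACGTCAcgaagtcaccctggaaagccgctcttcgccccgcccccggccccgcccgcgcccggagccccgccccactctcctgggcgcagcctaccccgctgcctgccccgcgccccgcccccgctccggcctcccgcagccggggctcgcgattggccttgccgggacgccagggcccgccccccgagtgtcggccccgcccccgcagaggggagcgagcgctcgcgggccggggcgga
A match is a description of the letters only. The shares of promoters were not tested.

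Nearly all called genes differed between the arms in the same direction in each treatment. Of the 7352 called genes, 97.9% had the same sign in all 3 treatments, compared with 35.2% of the genes not called. The pooled call draws on the same 3 differences, so this agreement is largely part of how the genes were picked. In fits of each treatment alone, 19.2% of genes were called in DMSO, 27.2% in E2 and 24.2% in E2 with fulvestrant, and 2251 genes passed in all 3 with the same sign, 1148 higher and 1103 lower. Pooling added 1731 genes that no single treatment had called, with a median absolute log2 change of 0.21, against 0.46 for those called in all 3. In the opposite case, 430 genes were called in some treatment and not in the pooled fit. The arms did not overlap in 3732 genes, 22% of those tested.

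The spread of each gene over the 12 libraries was divided between its sources for the 10326 genes of at least 5 CPM. Arm took a median of 45.4% of the sum of squares of log2 CPM, treatment 9.87%, arm by treatment 5.93% and replicates 26.5%. These shares were not adjusted for degrees of freedom, which are fewest for arm and most for replicates. They therefore do not set the sources on an equal footing. In 858 genes arm took over 90% and in 35 genes replicates did, while no gene had as much from treatment. CASP9, FBN2 and CTH were among the 858 genes.

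**Figure D3:**
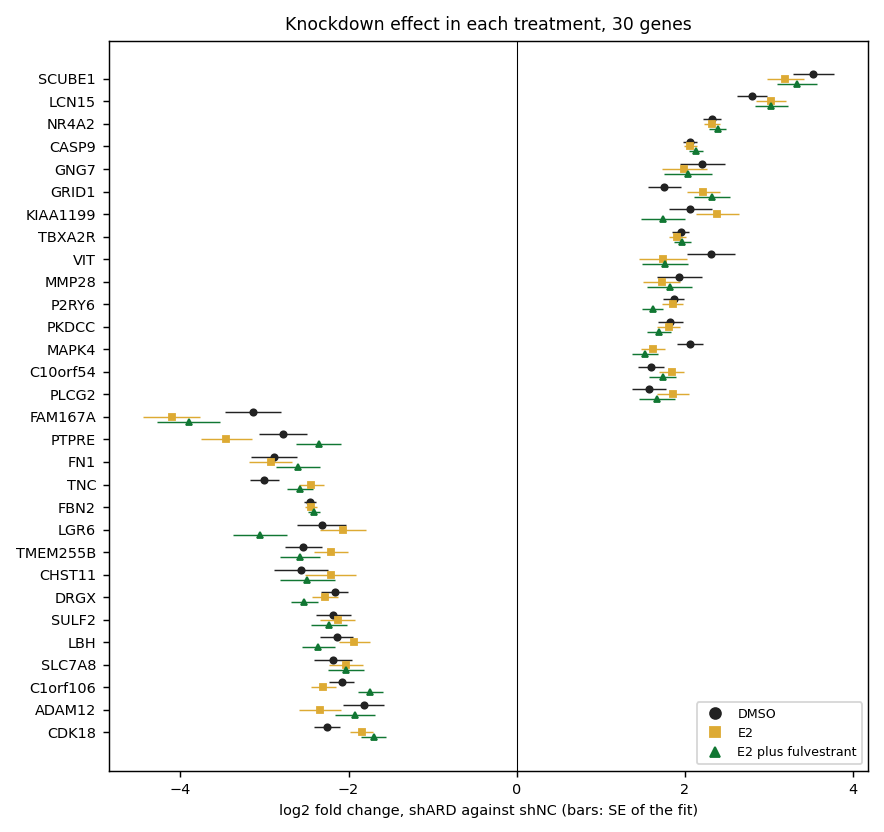
Log2 fold change of shARD against shNC within DMSO, E2 and E2 with fulvestrant for the 15 largest rises and the 15 largest falls, with bars of 1 SE from the fit. The 3 treatments of each gene lie on the same side of 0, which follows from picking genes whose arms do not overlap. FBN2, NR4A2 and CASP9 have nearly the same value in all 3.

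A test of the difference between treatments itself found it for few genes. At an adjusted p under 0.05, 5 genes (0.0294%) had a knockdown effect that differed between treatments, and 792 genes (4.66%) had an unadjusted p under 0.05. They were GNG5P2 (adjusted p = 4.38e-06), RP11-543P15.1 (0.00722), FTH1P20 (0.00825), RPL37 (0.00827) and MT-ND3 (0.0408). GNG5P2, a pseudogene named here after its values were seen, had 0 to 0.213 CPM in the shNC libraries with DMSO or E2 plus fulvestrant, 3.71 and 4.59 CPM in those with E2, and 1.73 to 5.11 CPM in all shARD libraries. Reads of a pseudogene may come from its parent or other copies. RPL37, a protein of the large ribosomal subunit, differed by -0.029 in DMSO, 0.50 in E2 and 0.35 in E2 with fulvestrant, and MT-ND3, a subunit of respiratory complex I, by -0.0049, 0.45 and 0.31. RP11-543P15.1 went from -0.26 in DMSO to 0.38 in E2. The number of genes depends on single libraries, with 2 to 14 when 1 is left out (2 without shARD DMSO replicate 1 or 2 or shARD E2 replicate 2, 3 without shNC DMSO replicate 1, 10 and 14 without shARD E2 plus fulvestrant replicates 1 and 2), and DESeq2 called 14. A miss in this test does not show that an effect was the same in all treatments.

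The GC content and the length of transcripts moved with the arms. Among 9540 genes of at least 5 CPM with a known transcript GC content, the quintile with the lowest GC had a median log2 change of -0.16, with 9.33% higher and 51.4% lower, and the quintile with the highest GC had 0.11, with 46.9% higher and 17.3% lower. By exonic length, the medians went from 0.067 in the shortest quintile to -0.072 in the longest. The libraries differed among themselves in this respect: the highest GC quintile minus the lowest, as median deviations of log2 CPM from each gene's mean, ranged from -0.33 to 0.039 in shNC (mean -0.13 ± 0.14 SD, n = 6) and from -0.038 to 0.34 in shARD (0.13 ± 0.13 SD, n = 6). The arms overlapped but differed by 0.27 (exact permutation test, two-sided, p = 0.00866, where 0.00216 is the smallest value 6 against 6 allows). That test shuffled the arms over all 12 libraries without the treatment block and took each library as independent, which the labels do not establish. Replicates of the same group also differed, for example 0.039 and -0.16 in shNC with DMSO. Whether this comes from the cells or from the libraries was not tested.

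**Figure D4:**
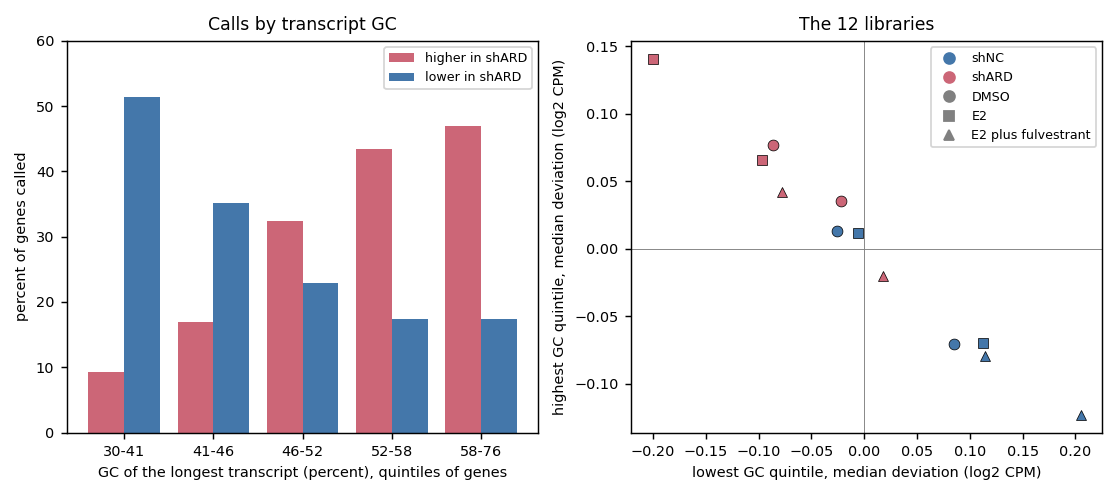
Left, the percent of genes called higher (red) and lower (blue) in quintiles of transcript GC content. Right, each library's median deviation (log2 CPM) for the lowest GC quintile against the highest, by arm and treatment; the lower calls fall from 51.4% in the lowest quintile to 17.3% in the highest, and the arms lean to opposite corners with some overlap.

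A fit with offsets for GC and length was added after the data were seen. It called 3536 genes higher and 3549 lower and kept 5846 (79.5%) of the 7352 calls with the same direction, while 14 were called in the opposite direction. Of calls under 1.25-fold 67.4% were kept, of those from 1.25-fold to 1.5-fold 88.6%, and of those over 1.5-fold 96.0%. Of the 649 genes past the 1.5-fold test, 579 (89.2%) also passed that test with the offsets. All 30 genes with the largest changes were among the calls kept. Chromosome medians followed GC as well, from -0.10 on chromosome 4 to 0.095 on chromosome 16, and lay between -0.029 and 0.056 with the offsets. In 929 overlapping windows of 50 neighbouring genes, the median log2 change stayed between -0.22 and 0.24.

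Gene lists by role are described next by their counts and medians, with no test of a list. Beside them stand the 43.3% called and the median of -0.02 over all genes tested. Of genes averaging 5 CPM or more, 58% were called, so a list of such genes with a share near 58% does not stand out. Level matters for direction: of all tested genes from 5 to 20 CPM, 16.3% were higher and 30.2% lower. More falls than rises in a list, as in those of signalling, complement and apoptosis, were not separated from level. Members named from a list were mainly those with the smallest adjusted p, which favours arms that do not overlap. Arms did not overlap in 22% of tested and 50.6% of called genes.

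**Figure D5:**
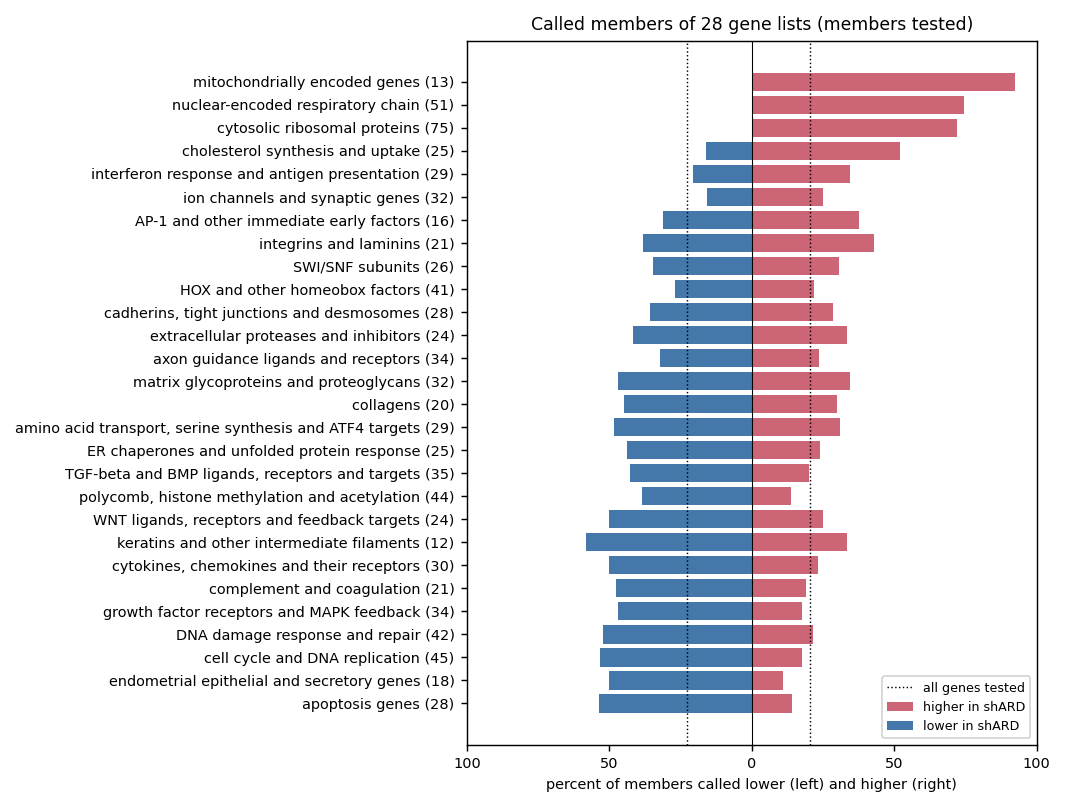
Percent of the tested members of 28 gene lists called higher (right, red) and lower (left, blue) in shARD, with dotted lines at the values for all genes tested. Among genes of at least 5 CPM, for which no line is drawn, 29.7% were higher and 28.3% lower. Mitochondrial, respiratory chain and ribosomal genes have bars on the higher side alone, and matrix, collagen and integrin lists have bars on both sides.

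Other subunits of SWI/SNF changed by less than ARID1A. Of 26 tested, 8 were higher and 9 lower (median log2 change -0.03), and ARID1A alone passed the 1.5-fold test. The largest rise was in PHF10, a subunit of the PBAF form, at 83.3, 97 and 103 CPM in shNC and 124, 129.6 and 147 CPM in shARD (log2 fold change 0.49, SE 0.041, adjusted p = 2.58e-11). SMARCA4, the catalytic ATPase, rose by 0.26 and BRD9, of the non-canonical form, by 0.27. The paralogue ARID1B, singled out for its role, rose by 0.12 and the alternative ATPase SMARCA2 fell by 0.32. Polycomb and histone-modifying genes gave 6 higher and 17 lower of 44 (median -0.04). The acetyltransferase KAT2B fell by 0.92 (6.09 to 3.41 CPM) and the histone demethylase KDM6B by 0.51, whereas the deacetylase HDAC4 rose by 0.52 and the methyltransferase KMT2A fell by 0.31.

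Genes of the extracellular matrix moved in both directions. Of 32 matrix glycoproteins and proteoglycans, 11 were higher and 15 lower (median -0.12), and 7 of the lower and 1 of the higher passed the 1.5-fold test. With FBN2, TNC and FN1 fell TGFBI, a secreted adhesion protein induced by TGF-beta, at 29.3, 31.2 and 33.7 CPM in shNC and 8.96, 9.65 and 11.1 CPM in shARD (log2 fold change -1.67, SE 0.064, adjusted p = 1.73e-19). In the other direction HSPG2, the basement membrane proteoglycan perlecan, was at 292, 339 and 368 CPM in shNC and 487, 547 and 579.8 CPM in shARD (log2 fold change 0.70, SE 0.037, adjusted p = 2.94e-16). The arms were apart in both genes. Of 20 collagens 6 were higher and 9 lower (median -0.16). COL16A1, a fibril-associated collagen, was at 17.1, 17.7 and 21.9 CPM in shNC and 3.34, 5.74 and 6.66 CPM in shARD, and COL7A1 fell as given above. COL18A1, the source of endostatin, rose with 63.4, 68.2 and 70.4 CPM in shNC and 134, 141 and 145 CPM in shARD (log2 fold change 1.05, SE 0.036, adjusted p = 1.06e-20). COL4A1, a basement membrane chain, rose by 0.43.

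Integrins, which are receptors for the matrix, and laminins split in the same manner. Of 21 integrins and laminins, 9 were higher and 8 lower (median -0.01), and 5 of the lower and 1 of the higher passed the 1.5-fold test. ITGA5, whose product pairs to form the fibronectin receptor, was at 202, 216 and 233 CPM in shNC and 106, 109 and 125 CPM in shARD (log2 fold change -0.93, SE 0.037, adjusted p = 4.33e-19). ITGB4, of the hemidesmosome, fell by 1.09 (SE 0.069). ITGB5, of a vitronectin receptor, rose by 0.64, and LAMB3, a chain of the epithelial laminin, was at 26.5, 28.5 and 28.9 CPM in shNC and 53.7, 56 and 58.7 CPM in shARD. The arms did not overlap in any of these 4, which were picked for a small adjusted p, nor in 50.6% of all called genes. Among 24 extracellular proteases and inhibitors 8 were higher and 10 lower (median -0.03). SERPINE2, a serine protease inhibitor, was at 59.3, 65.3 and 66.2 CPM in shNC and 24, 29.9 and 31 CPM in shARD (log2 fold change -1.15, SE 0.054, adjusted p = 2.15e-17), and TIMP2, an inhibitor of metalloproteases, rose by 0.40.

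Junction and keratin genes showed epithelial features moving in both directions. Of 28 cadherin, tight junction and desmosome genes, 8 were higher and 10 lower (median -0.06). CDH2, N-cadherin, was at 34.2, 37.9 and 40.2 CPM in shNC and 12.5, 13.8 and 15.4 CPM in shARD (log2 fold change -1.43, SE 0.061, adjusted p = 1.63e-18). JUP, plakoglobin, was at 245, 275 and 296 CPM in shNC and 437, 449 and 485 CPM in shARD, and PKP3, a plakophilin of desmosomes, rose by 0.52. Thus N-cadherin fell while these 2 junction plaque genes rose. Of 12 keratins and other intermediate filaments 4 were higher and 7 lower (median -0.13). KRT8 and KRT18, partners in simple epithelia, fell by 0.75 and 0.54, with KRT8 at 564, 590.2 and 619.8 CPM in shNC and 343, 349.9 and 368 CPM in shARD. KRT16 fell by 1.06 and KRT17 rose by 0.42. Of the 10 epithelial and gland markers, 5 were called lower and 0 higher. Beside KRT8 and KRT18 these were EPCAM, an epithelial adhesion molecule that did not exceed 1.98 CPM (log2 fold change -1.03), PAX8, a transcription factor of the female reproductive tract (-0.52), and the mucin MUC1 (-0.49).

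Among ligands, receptors and feedback genes of signalling pathways, falls outnumbered rises. Of all tested genes, 16.3% were higher and 30.2% lower from 5 to 20 CPM, and 29.5% and 30.2% from 20 to 100 CPM. The lists were not compared with genes of matched level. Of 24 WNT genes 6 were higher and 12 lower (median -0.19). NKD2, an antagonist of WNT signalling, was at 71.9, 77.7 and 88.1 CPM in shNC and 209, 222 and 229 CPM in shARD (log2 fold change 1.49, SE 0.041, adjusted p = 3.23e-23). The R-spondin RSPO3, a ligand that strengthens WNT signalling, fell by 1.26, and the R-spondin receptor LGR4 rose by 0.68, as did the WNT deacylase NOTUM by 0.59. Of 35 TGF-beta and BMP genes 7 were higher and 15 lower (median -0.10). The ligand TGFB1 was at 63.9, 67.8 and 76.3 CPM in shNC and 33.7, 38.8 and 44.1 CPM in shARD (log2 fold change -0.84, SE 0.052, adjusted p = 2.09e-14). ID3, a textbook BMP target, was at 101, 110.3 and 122 CPM in shNC and 270.1, 298 and 309 CPM in shARD (log2 fold change 1.43, SE 0.041, adjusted p = 1.05e-22). Thus TGFB1 and the TGF-beta target TGFBI were lower and the BMP target ID3 higher. FSTL3, a secreted binder of activins, rose by 0.44.

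Of 34 growth factor receptors and MAPK feedback genes, 6 were higher and 16 lower (median -0.26). Their median level was 17.4 CPM, in the class from 5 to 20 CPM where 30.2% of all genes were lower and 16.3% higher. The receptors moved apart: FGFR4 was at 12.4, 13.4 and 14.9 CPM in shNC and 36.4, 37.6 and 44.7 CPM in shARD (log2 fold change 1.53, SE 0.062, adjusted p = 5.52e-19), while FGFR1 fell by 0.43 (153 to 111 CPM). The ETS factors ETV4 and ETV5, transcribed downstream of FGF and ERK signalling, fell by 0.93 and 0.69. With the GC and length offsets the list had 6 higher and 17 lower. Of 30 cytokines, chemokines and their receptors 7 were higher and 15 lower (median -0.22). LIFR, the leukemia inhibitory factor receptor, was at 41.7, 43.9 and 46.4 CPM in shNC and 94.3, 102 and 114 CPM in shARD (log2 fold change 1.21, SE 0.048, adjusted p = 3.63e-19). IL4R, the interleukin-4 receptor, fell by 1.56, and the cytokines IL32 and IL18 by 0.92 and 0.53. Of 34 axon guidance genes 8 were higher and 11 lower (median -0.04). EPHB2, an ephrin receptor, was at 31.8, 36.8 and 37.5 CPM in shNC and 9.2, 10.8 and 13 CPM in shARD, and EFNA1, an ephrin ligand of the other class, at 45.9, 47.8 and 51.7 CPM in shNC and 87.5, 92.8 and 100.05 CPM in shARD. SEMA5A rose by 2.40 from at most 1.32 CPM in shNC, and PLXNA2, a semaphorin receptor, fell by 0.67.

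Complement genes were more often lower than higher. Of 21 complement and coagulation genes 4 were higher and 10 lower (median -0.36), 6 of the lower passing the 1.5-fold test. C1R and C1S encode the paired proteases that start the classical pathway. C1R was at 22, 23.4 and 26 CPM in shNC and 6.12, 8.43 and 9.05 CPM in shARD. C1S was at 43.6, 45.1 and 52.6 CPM in shNC and 16.7, 18.6 and 20.2 CPM in shARD, and the arms were apart for both. CLU, the secreted chaperone clusterin, was at 505, 517 and 558 CPM in shNC and 217, 228 and 233 CPM in shARD (log2 fold change -1.21, SE 0.029, adjusted p = 9.81e-25). The membrane inhibitor CD59 rose by 0.58. Of 29 interferon and antigen presentation genes 10 were higher and 6 lower (median 0.06), with OAS1 higher by 0.84, IRF7 by 0.57 and BST2 by 0.33, and TAP2, of the peptide transporter, lower by 0.45. The libraries overlapped for IRF7 and not for the other 3.

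Among transcription factors, immediate early genes were divided. Of 16, 6 were higher and 5 lower (median 0.00). Beside NR4A2, its relative NR4A1 rose by 0.68, KLF4 by 0.76 with 124, 131 and 136 CPM in shNC and 212, 221 and 226 CPM in shARD, and FOSL2, an AP-1 subunit, by 0.51. FOSB, IER3 and FOSL1, chosen after their values were seen, fell by 1.03, 0.97 and 0.69. Of 41 HOX and other homeobox factors 9 were higher and 11 lower (median -0.05). HOXB9 and HOXC11 fell by 0.74 and 0.45 and TGIF2 by 0.45, and SHOX2 rose by 2.14 from at most 0.385 CPM in shNC to at least 0.744 CPM in shARD.

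Apoptosis genes more often fell than rose. Of 28, 4 were higher and 15 lower (median -0.19). CASP4, an inflammatory caspase, was at 73.5, 74 and 82.6 CPM in shNC and 24.7, 26.9 and 30.4 CPM in shARD (log2 fold change -1.47, SE 0.053, adjusted p = 2.59e-20). MCL1, an anti-apoptotic member of the BCL2 family, fell by 0.45, and BAD, a pro-apoptotic member, rose by 0.47. Members with either role were thus among the changes. Of 45 cell cycle and replication genes 8 were higher and 24 lower (median -0.13). CDKN1A (p21), an inhibitor of cyclin-dependent kinases, was at 119, 129.96 and 135 CPM in shNC and 70.9, 79.5 and 84.8 CPM in shARD (log2 fold change -0.72, SE 0.041, adjusted p = 1.87e-15), and the inhibitor CDKN2B fell by 0.85. E2F7, a repressor of the E2F family, fell by 0.58 and the mitotic cyclin CCNB2 by 0.31. The lower genes therefore included inhibitors of the cycle as well as genes of its mitotic phase, and only CDKN1A and CDKN2B passed the 1.5-fold test. With the offsets the counts were 5 and 24.

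Of 42 DNA damage response and repair genes 9 were higher and 22 lower (median -0.18). BRCA1, a mediator of homologous recombination, was at 63.8, 75.3 and 82.4 CPM in shNC and 44.7, 48 and 49.9 CPM in shARD (log2 fold change -0.61, SE 0.049, adjusted p = 8.29e-12), and NBN, of the complex that senses breaks, at 65.5, 78 and 90.4 CPM in shNC and 42.5, 47.6 and 49.6 CPM in shARD. FANCI fell by 0.37 and FANCA rose by 0.33, both of the Fanconi pathway. This list had a median transcript GC of 45.6% and a median exonic length of 4284 bases, and with the offsets 9 were higher and 16 lower (median -0.10).

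Genes of the mitochondrion and the ribosome moved one way by small amounts. Of 13 mitochondrially encoded genes 12 were higher and 0 lower, all but MT-ATP8, with a median log2 change of 0.28. MT-CYB, of complex III, was at 2393, 2509 and 2594 CPM in shNC and 3301, 3335 and 3557 CPM in shARD (log2 fold change 0.43, SE 0.024, adjusted p = 9.89e-16). Of 51 nuclear-encoded respiratory chain genes 38 were higher and 0 lower (median 0.20), among them NDUFS6, UQCRC2, NDUFA4 and NDUFV1 with rises of 0.44, 0.34, 0.33 and 0.30. Of 75 cytosolic ribosomal proteins 54 were higher and 0 lower (median 0.16). RPL35 was at 794, 869.7 and 971 CPM in shNC and 1006, 1099 and 1176 CPM in shARD, RPL23 rose by 0.25, RPL36 by 0.36 and RPS15 by 0.26. No member of the 3 lists passed the 1.5-fold test. In the class over 100 CPM, where many of these genes lie, 50.4% of all genes were higher. With the offsets the counts were 12 and 0, 39 and 1, and 53 and 0. Counts are relative to the library total, and a change in total RNA per cell was not measured.

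Metabolic and secretory genes were mixed. Of 29 genes of amino acid transport, serine synthesis and the ATF4 response 9 were higher and 14 lower (median -0.07). CTH, which makes cysteine from cystathionine, was at 52.8, 53.2 and 54.2 CPM in shNC and 129, 134 and 138 CPM in shARD (log2 fold change 1.33, SE 0.037, adjusted p = 4.11e-23). TRIB3 and MTHFD2, both ATF4 targets, fell by 0.66 and 0.52, while PYCR1, of proline synthesis, rose by 0.45. Of 25 genes of ER chaperones and the unfolded protein response 6 were higher and 11 lower (median -0.05): the chaperones HYOU1 and HSP90B1 fell by 0.54 and 0.31, the stress sensor ERN1 (IRE1) by 1.14, and P4HB, a disulfide isomerase, rose by 0.34. Of 25 cholesterol genes 13 were higher and 4 lower (median 0.09). INSIG1, which holds SREBP back in the ER, was at 764, 778 and 804 CPM in shNC and 474, 489 and 506 CPM in shARD (log2 fold change -0.67, SE 0.027, adjusted p = 3.71e-19). The enzymes ACAT2 and EBP rose by 0.51 and 0.29.

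Of 18 endometrial epithelial and secretory genes 2 were higher and 9 lower (median -0.39). The 2 higher genes were MSLN, mesothelin, at 338, 361 and 384 CPM in shNC and 726, 763 and 811 CPM in shARD (log2 fold change 1.08, SE 0.029, adjusted p = 1.8e-23), and ALPP. MUC1 fell by 0.49 beside CLU. Of 32 ion channel and synaptic genes 8 were higher and 5 lower (median 0.04), with 40.6% called. GABRE, a GABA receptor subunit, was at 40.2, 48.6 and 50.9 CPM in shNC and 23.2, 25.5 and 29.5 CPM in shARD, GRIK2 and CACNB1 fell by 1.19 and 0.57, and the presynaptic adhesion gene NRXN3 rose by 0.66.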

How the data were processed

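Poly(A) RNA libraries were made with a TruSeq mRNA kit from TRIZOL-extracted RNA, per the labels' protocols. The authors deposited whole-number read counts per gene without normalization. Reads were trimmed (Trim Galore, cutadapt) and mapped to hg19 by Subread 2.0.0; the submitters' processing notes name these tools. They were counted over exons by gene with featureCounts 2.0.0, per the file headers, with no option for strand, pairs or multiple alignments, so overlapping and near-identical genes are uncertain. The fulvestrant dose, typed partly in letters, was read as 100 nM. All 12 libraries mapped to groups by their labels, and the table of the whole series was used.

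The model was fitted to the counts with edgeR 4.0.16 under R 4.3.3 (filterByExpr by group, TMM, glmQLFit with legacy = FALSE, treatment plus arm, glmQLFTest). Adjustment of p-values was by Benjamini-Hochberg across the 16998 genes tested, and a gene is called under 0.05. The 1.5-fold test was glmTreat, and the difference between treatments was an F-test of the arm by treatment terms. DESeq2 1.42.0 was an alternative. CPM uses TMM-scaled totals, except for the floor of 3 counts, which uses plain totals. Sums of squares use log2 CPM with a prior count of 2, and transcript GC comes from the longest GENCODE transcript of a gene. The fits were tested on simulated data first. Figures and summaries used Python 3.11.15 with SciPy 1.17.1.

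Named genes were ARID1A, the 15 largest rises and 15 largest falls (at least 5 CPM in the higher arm, arms not overlapping, a symbol, no pseudogene, no arm by treatment call), the 5 largest rises and 5 largest falls in CPM, the 6 genes with the smallest adjusted p in the arm by treatment test (group mean 5 CPM or more in some group), and up to 4 members of each of 28 lists with the smallest adjusted p. The genes, the lists and the rule were chosen with earlier results of these data known. Of 1166 list entries 1031 matched a gene and 854 were tested. Some named genes are not reported here. The floor of 3 counts covers counting error only, whereas SEs and p-values include the spread between libraries.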

Additional observations from a re-analysis of the deposited data

Results flagged for a closer look

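Among the named genes, 8 library values stood apart from the other 5 of their arm by Dixon's test, out of 298 groups of 6 checked, where chance gives about 1 in 20. In shNC, PLCG2 was 2.12 CPM in E2 plus fulvestrant replicate 2, against 3.62 to 4.42 CPM in the others, CASP4 was 82.6 CPM in that library, against 73.5 to 76.6 CPM, and ACAT2 was 159.9 CPM in DMSO replicate 2, against 149.1 to 153.1 CPM. In shARD, FAM167A was 0.811 CPM and ERN1 4.09 CPM in DMSO replicate 2, against 0.304 to 0.412 and 2.18 to 2.89 CPM. FOSL2 was 286.0 CPM in E2 plus fulvestrant replicate 1, against 266 to 271.1 CPM, C1R was 6.12 CPM in E2 plus fulvestrant replicate 2, against 8.02 to 9.05 CPM, and MT-CYB was 3557 CPM in E2 replicate 2, against 3301 to 3367 CPM. All 8 of these values lie on the same side of the other arm as the rest of their own arm. The genes were picked for arms that do not overlap or for a small adjusted p, so this is largely part of how they were picked.

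The knockdown effect differed between treatments for RP11-543P15.1 (adjusted p = 0.00722), FTH1P20 (0.00825), RPL37 (0.00827) and MT-ND3 (0.0408), by edgeR's quasi-likelihood test over all genes. All 4 had the lowest log2 fold change in DMSO and the highest in E2. FTH1P20 is a pseudogene of a ferritin chain with many copies, so the origin of its reads is uncertain.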

How the results depend on the processing

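The counts of higher, lower and past 1.5-fold genes stayed within 1.5 times the reported ones under the other normalizations, filters and models tried, DESeq2 giving 3619 higher and 3683 lower. The exceptions were the fits of a single treatment, which use fewer libraries for the contrast: 1648 and 1612 in DMSO, 2275 and 2349 in E2, and 1937 and 2176 in E2 with fulvestrant. With 1 library left out, 3207 to 3520 genes were higher, 3574 to 3948 lower and 592 to 636 past 1.5-fold, with no call in the opposite direction.

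The 5 genes with an arm by treatment difference became 14 in DESeq2, 41 with no filter on low counts, 17 with the GC and length offsets, and 2 to 14 with 1 library left out: 3 without shNC DMSO replicate 1, 2 without shARD DMSO replicate 1, shARD DMSO replicate 2 or shARD E2 replicate 2, 10 without shARD E2 plus fulvestrant replicate 1 and 14 without its replicate 2. The cause was not tested.

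Of 149 named genes, 140 kept direction and call in every one of the 28 alternatives that tested them. Most were picked from the pooled fit of the same libraries for a large change or a small adjusted p. Their agreement is thus largely part of how they were picked. Of all 7352 calls, 79.5% were kept with the GC and length offsets, and 43.0% to 60.2% within a single treatment. The log2 fold change reversed for RP11-543P15.1 (-0.041 without E2, -0.26 in DMSO alone), FTH1P20 (-0.078 without E2, -0.23 in DMSO alone, -0.040 with offsets), RPL37 (-0.029), MT-ND3 (-0.0049) and RP11-40C6.2 (-0.30) in DMSO alone, and SCDP1 (0.088) in E2 alone. SCDP1 was also not called by DESeq2 (adjusted p = 0.094) or without E2 plus fulvestrant. SHOX2 and GRIK2 were not called in DMSO alone (adjusted p = 0.054 and 0.087) nor FLNA in E2 plus fulvestrant alone (0.16), by edgeR. In 16 further values, all for RP11-543P15.1, RP11-40C6.2 or FTH1P20, a gene not called in the pooled fit was called: RP11-543P15.1 and RP11-40C6.2 with no filter (adjusted p = 0.0063 and 0.016), in the group-mean model (0.041 and 0.034) and without DMSO (1.2e-05 and 8.5e-05), FTH1P20 without DMSO (0.00054), all 3 in E2 alone, RP11-40C6.2 in E2 plus fulvestrant alone (0.039), and RP11-543P15.1 or RP11-40C6.2 without shNC DMSO replicate 1 or a shARD DMSO replicate.

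Replicate numbers were checked for pairing between arms: same-numbered libraries correlated by -0.07 in DMSO, -0.18 in E2 and 0.12 in E2 with fulvestrant, and over all pairs of groups by -0.22 to 0.28, with 0.16 to 0.28 among the 3 shNC groups. Not every pair was above 0.1, so the numbers were not taken to pair the libraries. A replicate block of 6 pairs called 3402 higher and 3824 lower, and the replicate number as a term 3489 and 3909. Depth limits the genes under 1 CPM, where the median SE was 0.39 on the log2 scale.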
